A study of Homo sapiens with 16 samples.

Results

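RGS1 and 6 related genes, RGS2, RGS10, RGS14, RGS16, RGS18 and RGS19, encode regulators of G protein signalling (RGS proteins). They were picked out by symbol from a table of 60669 genes, and all 7 are among the 16555 genes with enough counts to be tested. The set was chosen from earlier results of the same 16 libraries, with no recorded threshold, so the levels and fold changes of these 7 genes are given as a description and carry no p-value. A further 18 rows of the table carry other RGS symbols and are called other RGS genes here, and 8 of those rows could be tested. They include RGS9BP, which was tested, and RGS7BP, which was not, genes of proteins that bind RGS proteins.

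RNA was sequenced from MOLM-13, an established human acute myeloid leukaemia cell line, in 4 groups of 4 libraries. The combination group received an EZH2 inhibitor (EZH2i) and a PRMT5 inhibitor (PRMT5i), each at 1 µM. The PRMT5i group and the EZH2i group each received the named inhibitor alone at 1 µM, and the DMSO group received 0.005% DMSO. Treatment lasted 4 days in all groups. The inhibitors are not named in the labels, each was used at a single dose and time, and all libraries come from the same cell line. The origin of the replicates is not stated in the labels, so every p-value measures only the spread between these samples, which may be technical.

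A heterotrimeric G protein passes a signal from a receptor on the cell surface while its alpha subunit holds GTP. RGS proteins bind the active alpha subunit and speed its GTP hydrolysis, which ends the signal. In leukocytes this brake acts on chemokine receptors and so on migration, and RGS1 is known for that role in B and T lymphocytes. EZH2, the catalytic subunit of polycomb repressive complex 2 (PRC2), places a repressive mark on histone H3. PRMT5 methylates arginines of histones and other proteins. The title of the study sets arginine methylation by PRMT5 against repression by PRC2, and the comparison of the combination with PRMT5i alone asks which genes are higher when EZH2 is inhibited as well.

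RGS1, RGS2, RGS13 and RGS18 are neighbours on chromosome 1, and RGS16 is on the same chromosome. Their upstream sequences are printed because RGS1, RGS2, RGS13 and RGS16 had higher means with EZH2i than without it, both with and without PRMT5i, and RGS18 did not. Each window holds the 250 bases before the RefSeq start of the gene, read 5′ to 3′ on the strand of the gene. Capitals mark exact matches, on either strand, to TATAAA (the core promoter box), CCAAT (the motif of factor NF-Y) and CGTCA (the core of the cAMP response element). No match in these windows overlapped another.
RGS1 promoter (chr1:192575523-192575772, plus strand, GRCh38.p14): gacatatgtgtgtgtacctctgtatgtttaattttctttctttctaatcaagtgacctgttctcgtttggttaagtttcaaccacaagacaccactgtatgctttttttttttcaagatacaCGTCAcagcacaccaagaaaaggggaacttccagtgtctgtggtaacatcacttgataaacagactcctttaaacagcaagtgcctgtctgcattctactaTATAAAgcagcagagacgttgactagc
RGS16 promoter (chr1:182604390-182604639, minus strand, GRCh38.p14): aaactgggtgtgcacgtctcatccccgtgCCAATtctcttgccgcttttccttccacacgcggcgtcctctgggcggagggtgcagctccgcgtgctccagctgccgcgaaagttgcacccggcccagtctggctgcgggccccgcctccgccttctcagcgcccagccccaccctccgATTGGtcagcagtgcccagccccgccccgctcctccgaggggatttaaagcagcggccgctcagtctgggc
RGS2 promoter (chr1:192808789-192809038, plus strand, GRCh38.p14): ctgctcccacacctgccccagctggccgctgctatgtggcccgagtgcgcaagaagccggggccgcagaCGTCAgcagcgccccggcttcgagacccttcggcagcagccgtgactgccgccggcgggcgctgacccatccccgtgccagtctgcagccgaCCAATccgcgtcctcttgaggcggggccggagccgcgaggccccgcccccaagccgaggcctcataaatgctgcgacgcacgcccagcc
RGS13 promoter (chr1:192635897-192636146, plus strand, GRCh38.p14): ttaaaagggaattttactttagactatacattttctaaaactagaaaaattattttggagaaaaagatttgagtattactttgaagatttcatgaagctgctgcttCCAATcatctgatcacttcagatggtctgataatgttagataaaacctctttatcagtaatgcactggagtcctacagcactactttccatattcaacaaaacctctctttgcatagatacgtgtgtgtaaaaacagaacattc
RGS18 promoter (chr1:192158212-192158461, plus strand, GRCh38.p14): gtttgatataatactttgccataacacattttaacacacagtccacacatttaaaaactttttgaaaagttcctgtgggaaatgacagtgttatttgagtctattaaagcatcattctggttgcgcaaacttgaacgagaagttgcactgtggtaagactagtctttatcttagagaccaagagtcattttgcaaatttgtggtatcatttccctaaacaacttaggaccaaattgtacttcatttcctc

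The RGS1 window had a GC content of 39.2% and held 1 TATAAA and 1 CGTCA. The RGS16 window had a GC content of 68.4% and 22 CpG sites, with 2 CCAAT matches, of which 1 reads as ATTGG on the printed strand. RGS2 had the highest GC content of these 5 windows, 72.8%, with 28 CpG sites, 1 CCAAT and 1 CGTCA. The RGS13 window, at 32% GC, held 1 match to CCAAT, and the RGS18 window, at 34.8% GC, held none of the motifs. Among 35114 RefSeq promoter windows of the same length the median GC content was 58% and the median number of CpG sites 11. TATAAA occurred in 10.7% of them, CCAAT in 32% and CGTCA in 21.2%. The windows of RGS1, RGS2, RGS13 and RGS16 thus differed in base composition, and no motif of the 3 was present in all 4 of them.

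RGS1 (ENSG00000090104.11; GENCODE release 29 on GRCh38, chromosome 1, 192575727 to 192580031, plus strand) varied most among the 7 genes. It had 31.5, 31.6, 35.7 and 36.7 CPM (counts relative to the TMM-scaled library total) in the combination libraries and 10.7, 9.22, 6.91 and 7.76 CPM with PRMT5i. With EZH2i it had 58.2, 70.1, 90.0 and 121 CPM, against 53.9, 24.1, 40.3 and 43.5 CPM with DMSO. All PRMT5i libraries lay below all libraries of the other groups, all EZH2i libraries lay above them, and the combination and DMSO libraries overlapped. On the log2 scale RGS1 was 2.22 lower with PRMT5i than with DMSO (log2 fold change −2.22, SE 0.24). It was 1.97 higher in the combination than with PRMT5i alone (SE 0.24). EZH2i against DMSO gave 1.07 (SE 0.23), the combination against EZH2i −1.32 (SE 0.23) and the combination against DMSO −0.26 (SE 0.23). Values are also given within replicates 1 and 2 and within replicates 3 and 4, a division taken from earlier results of these data that the labels do not name. Over all genes, replicates 1 and 2 were each other's closest library with PRMT5i, and the most distant pair in the combination and DMSO groups. In those 2 sets RGS1 had 1.66 and 2.30 for the combination against PRMT5i, −1.85 and −2.51 for PRMT5i against DMSO, and 0.82 and 1.31 for EZH2i against DMSO. In bulk RNA, fewer cells that express a gene and less RNA of it per cell cannot be told apart.

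RGS16 (ENSG00000143333.6; chromosome 1, 182598623 to 182604408, minus strand), whose product acts on Gi and Gq alpha subunits, had the same order of group means at a smaller range. Its combination libraries held 47.3, 41.3, 40.6 and 38.1 CPM and its PRMT5i libraries 24.3, 22.5, 20.9 and 17.5 CPM. The EZH2i libraries held 68.4, 58.2, 89.3 and 97.3 CPM, and the DMSO libraries 40.6, 35.1, 55.0 and 55.7 CPM. The PRMT5i libraries were again below all others and the EZH2i libraries above all others. The log2 fold change was 0.97 for the combination against PRMT5i (SE 0.17), −1.13 for PRMT5i against DMSO (SE 0.17) and 0.75 for EZH2i against DMSO (SE 0.17). Within replicates 1 and 2 PRMT5i against DMSO gave −0.69, and within replicates 3 and 4 it gave −1.53. The combination against DMSO, −0.16 over all libraries (SE 0.17), was 0.23 in replicates 1 and 2 and −0.49 in replicates 3 and 4.

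RGS2 (ENSG00000116741.7; chromosome 1, 192809039 to 192812283, plus strand), which preferentially turns off Gq, was a low-level gene in every group. It had 5.78, 6.60, 5.49 and 6.59 CPM in the combination and 3.50, 3.23, 2.64 and 2.51 CPM with PRMT5i. It had 8.08, 7.49, 7.83 and 6.60 CPM with EZH2i, against 4.88, 3.15, 3.01 and 3.43 CPM with DMSO. The libraries with EZH2i, alone or in the combination, thus all lay above the libraries without it, and PRMT5i and DMSO libraries overlapped. The log2 fold change was 1.04 for the combination against PRMT5i and 1.05 for EZH2i against DMSO (SE 0.15 each). For the combination against DMSO it was 0.76 (SE 0.15), and for PRMT5i against DMSO it was −0.28 (SE 0.15). Unlike those of RGS1 and RGS16, the combination libraries of RGS2 all lay above its DMSO libraries.

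**Figure D1:**
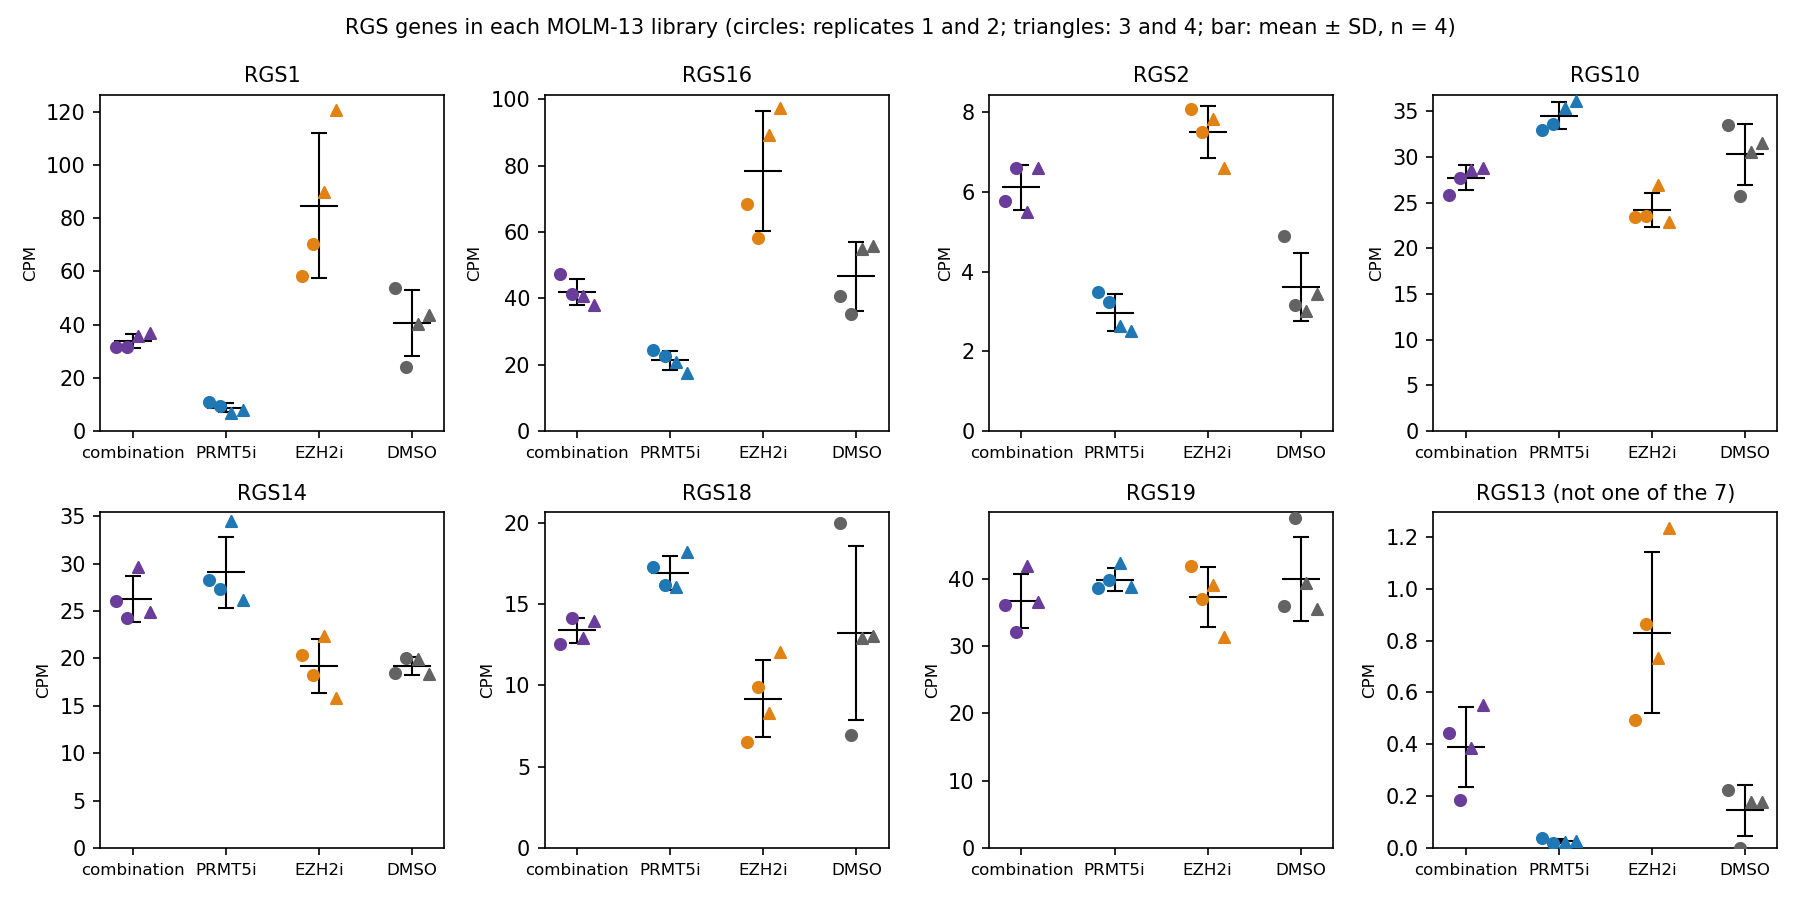
Level of each of the 7 RGS genes and of RGS13 in every library, in TMM-scaled CPM on a linear axis from 0. Circles are replicates 1 and 2, triangles replicates 3 and 4, and bars the mean ± SD of 4 libraries. RGS1 and RGS16 are lowest with PRMT5i and highest with EZH2i, RGS2 is higher in both groups with EZH2i, and the 4 groups of RGS19 overlap.

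RGS10 and RGS14 belong to another subfamily, with Gi alpha subunits as their main targets, and RGS14 also carries a GoLoco motif that binds inactive Gi. RGS10 (ENSG00000148908.14; chromosome 10, 119499828 to 119542708, minus strand) had 25.8, 27.7, 28.6 and 28.8 CPM in the combination and 33.0, 33.6, 35.4 and 36.1 CPM with PRMT5i. It had 23.4, 23.5, 26.9 and 22.9 CPM with EZH2i and 33.5, 25.7, 30.5 and 31.5 CPM with DMSO. The combination libraries all lay below the PRMT5i libraries, and the other comparison of EZH2i, against DMSO, overlapped through DMSO replicate 2. The log2 fold change was −0.33 for EZH2i against DMSO and −0.32 for the combination against PRMT5i (SE 0.09 each).

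RGS14 (ENSG00000169220.17; chromosome 5, 177357837 to 177372601, plus strand) was higher in the groups with PRMT5i. It had 26.1, 24.3, 29.7 and 24.9 CPM in the combination and 28.2, 27.4, 34.5 and 26.2 CPM with PRMT5i. It had 20.4, 18.2, 22.3 and 15.8 CPM with EZH2i, against 18.4, 20.05, 19.9 and 18.4 CPM with DMSO. Neither group with PRMT5i overlapped a group without it. The log2 fold change was 0.45 for the combination against EZH2i, 0.45 for the combination against DMSO and 0.60 for PRMT5i against DMSO (SE 0.11 each). For EZH2i against DMSO it was −0.00090 (SE 0.11).

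RGS18 (ENSG00000150681.9; chromosome 1, 192158457 to 192185815, plus strand), known from platelets and megakaryocytes, had 12.6, 14.1, 12.9 and 13.9 CPM in the combination. It had 17.3, 16.2, 16.03 and 18.2 CPM with PRMT5i, 6.49, 9.90, 8.28 and 12.1 CPM with EZH2i, and 19.99, 6.92, 12.9 and 13.02 CPM with DMSO. DMSO replicate 1 was the highest of the 16 libraries and DMSO replicate 2 lay below all but EZH2i replicate 1, so no comparison with DMSO separated the groups. The combination libraries lay below the PRMT5i libraries and above the EZH2i libraries. Of the exon bases of RGS18, 5.5% are shared with a gene of the opposite strand, and whether the counting used strand is not stated. DMSO replicate 1 also had the largest share of counts on mitochondrial genes, 1.70% against 0.213% to 0.792% in the other 15 libraries, and its part in the RGS18 level was not tested. Markers of megakaryocytes and platelets summed to 1.82 to 2.66 CPM in the combination, 1.499 to 1.99 with PRMT5i, 3.91 to 8.98 with EZH2i and 2.13 to 4.15 with DMSO. Of these 9 markers 8 were under 1 CPM in every group, and PF4 and PPBP, genes of platelet chemokines, were at 0 in every library.

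RGS19 (ENSG00000171700.13; chromosome 20, 64073181 to 64079988, minus strand), which acts on Gi alpha subunits, was level across the groups. It averaged 36.7 ± 4.04 CPM in the combination, 39.9 ± 1.70 with PRMT5i, 37.3 ± 4.48 with EZH2i and 40.0 ± 6.30 with DMSO (SD, n = 4 each). The groups overlapped in every comparison.

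Levels of different genes can be compared only per length, here as CPM per kilobase of exon. With DMSO the order was RGS10 (24.2 ± 2.64), RGS19 (19.7 ± 3.11), RGS16 (19.2 ± 4.26), RGS1 (9.83 ± 2.999), RGS14 (5.06), RGS18 (4.71) and RGS2 (1.73 CPM per kilobase). RGS19 and RGS16 lay within 1 SD of each other, as did RGS14 and RGS18. With EZH2i RGS16 came first at 32.3 ± 7.47 and RGS1 next at 20.6 ± 6.63 CPM per kilobase, with RGS1 within its SD of RGS10 (19.3) and RGS19 (18.4). With PRMT5i RGS1 was next to last at 2.10 ± 0.407 CPM per kilobase, and RGS10 first at 27.6 ± 1.16. In the combination the order was that of DMSO, from RGS10 at 22.1 ± 1.09 to RGS2 at 2.92 ± 0.271, with RGS1 at 8.23 ± 0.665 CPM per kilobase. Per kilobase, RGS10 exceeded RGS1 in all groups but EZH2i, where they did not differ beyond their spread. The length counts the exons of all annotated transcripts together, 4117 bases for RGS1 and 1252 for RGS10, so the order depends on it. Without division by length, RGS1 had the higher mean with DMSO (40.5 against 30.3 CPM) and in the combination (33.9 against 27.7). The same held with EZH2i (84.7 against 24.2 CPM), while RGS10 was higher with PRMT5i (34.5 against 8.65).

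Set against all genes, calls of the 7 were counted with edgeR's quasi-likelihood test at an adjusted p below 0.05 over the 16555 genes. In the combination against PRMT5i, 3 of the 7 were called (RGS1, RGS2 and RGS16), all higher, beside 2.91% of all genes higher and 1.24% lower. In the combination against EZH2i, 1 was higher (RGS14) and 2 lower (RGS1 and RGS16), beside 13.4% higher and 14.6% lower. In the combination against DMSO, 2 were called (RGS2 and RGS14), both higher, beside 17.6% higher and 18.5% lower. In PRMT5i against DMSO, 1 was higher (RGS14) and 2 lower (RGS1 and RGS16), beside 17.1% higher and 18.3% lower. In EZH2i against DMSO, 3 were higher (RGS1, RGS2 and RGS16) and 1 lower (RGS10), beside 4.11% higher and 3.49% lower. Since the genes were chosen from these contrasts, nothing is read from those counts. RGS18 and RGS19 were called in none of these comparisons in the fit of all libraries. The comparisons share libraries: DMSO serves in 3 of them, and the combination in 3.

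EZH2i against DMSO was the least settled comparison. When the fit held only the 8 libraries of those groups, 135 of all genes were called in place of 1259, and of the 7 genes RGS2 alone was still called. RGS1, RGS16 and RGS10 kept the log2 fold changes 1.07, 0.75 and −0.32 there. The call of RGS10 was also lost with total counts in place of TMM scaling, with no filter on low counts, and when any of DMSO replicates 1, 3 and 4, EZH2i replicates 1, 2 and 4 or PRMT5i replicate 2 was left out. The number of all genes called ran from 499 without DMSO replicate 4 to 4591 without DMSO replicate 2, and also moved by over 1.5 times without DMSO replicate 3 or EZH2i replicate 1 or 2.

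The interaction is the effect of EZH2i in cells with PRMT5i minus its effect in cells without, on the log2 scale. None of the 7 genes passed for it in edgeR or in DESeq2, beside 0.254% of all genes with a positive and 0.0362% with a negative interaction in edgeR. Of the 7, 1 had an unadjusted edgeR p below 0.05, and since the genes were chosen from these libraries nothing is read from it. The interaction of RGS1 was 0.90 (SE 0.32), with an EZH2i effect of 1.97 in cells with PRMT5i and 1.07 in cells without. For RGS2 these effects were 1.04 and 1.05, and its interaction was −0.02 (SE 0.21). RGS16 had 0.97 and 0.75, with an interaction of 0.23 (SE 0.24).

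**Figure D2:**
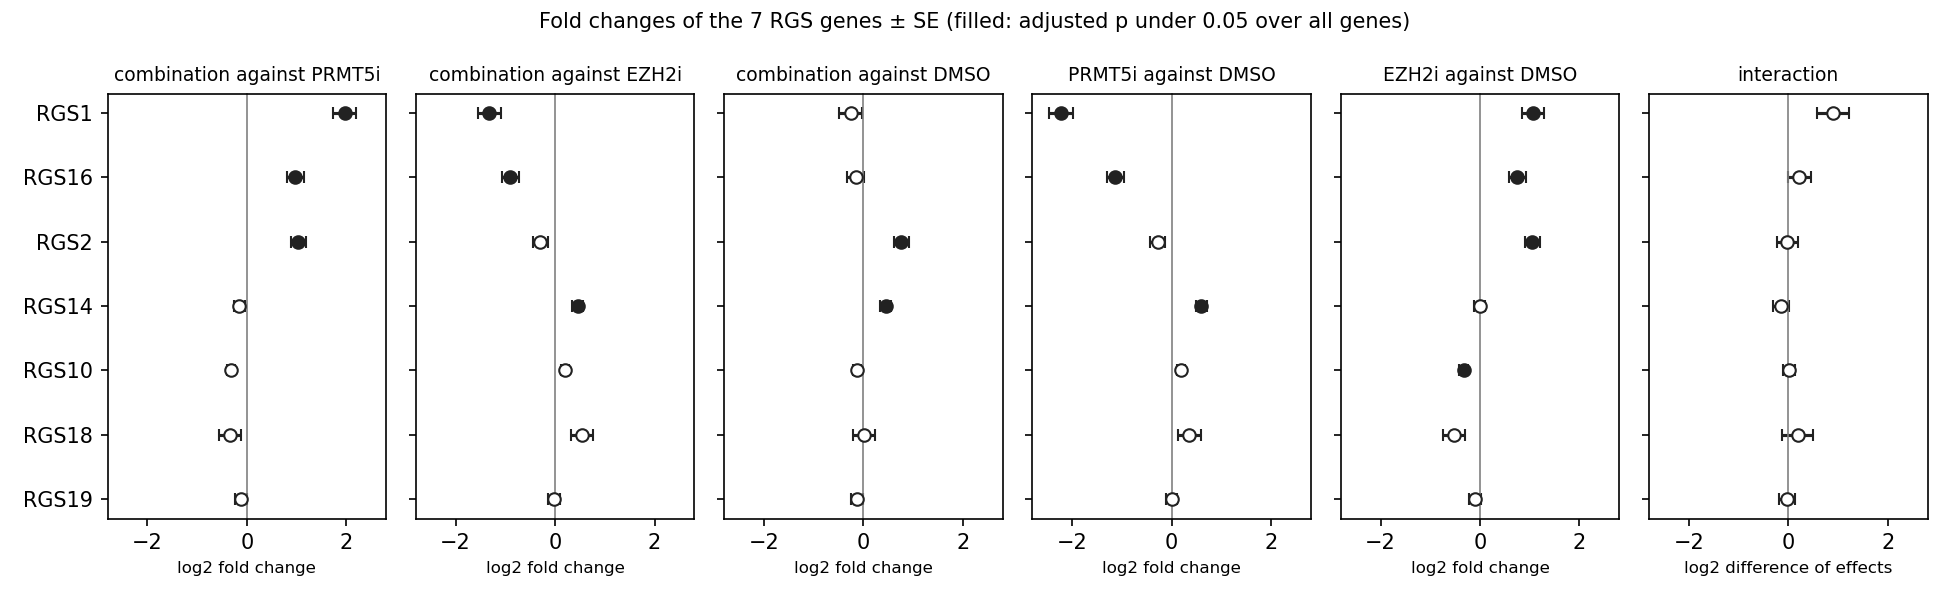
Log2 fold changes of the 7 RGS genes in the 5 comparisons of groups, and the interaction in the last panel, with the standard error as a bar. Filled points passed an adjusted p of 0.05 over all genes. RGS1, RGS16 and RGS2 are right of 0 in the combination against PRMT5i, and RGS1 and RGS16 left of 0 in PRMT5i against DMSO.

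RGS13 (ENSG00000127074.14; chromosome 1, 192636138 to 192660306, plus strand), a regulator known from B cells and mast cells, starts 60.4 kilobases downstream of RGS1. It was barely expressed. Its counts were 23, 8, 14 and 20 in the combination, 2, 1, 1 and 1 with PRMT5i, 18, 43, 28 and 43 with EZH2i, and 8, 0, 8 and 9 with DMSO. The PRMT5i libraries thus held the fewest counts, apart from DMSO replicate 2, and the EZH2i libraries the most apart from EZH2i replicate 1. RGS13 passed the filter on low counts because of the EZH2i libraries, where its mean was highest. Its fold changes are therefore a description and carry no p-value. On the log2 scale it had 3.71 for the combination against PRMT5i (SE 0.64) and 2.45 for EZH2i against DMSO (SE 0.47). PRMT5i against DMSO gave −2.35 (SE 0.72). With so few counts in the PRMT5i group, the size of a fold change depends on the prior count, and the fitted values did not use the prior count of 2. Log2 CPM, which did, gave smaller sizes. There PRMT5i against DMSO was −0.56 within replicates 1 and 2 and −1.66 within replicates 3 and 4. The combination against PRMT5i was 2.14 and 2.83 in those sets. The fitted value for the combination against DMSO was 1.36 (SE 0.49). The call of RGS13 there was lost under 12 alternatives, among them no filter on low counts and leaving out any of DMSO replicates 2, 3 and 4. With only the groups compared, the call with EZH2i was lost too, and in the combination against PRMT5i RGS13 was then too low to be tested. The 6 B cell markers stayed under 1 CPM in every group, and the CPM of RGS13 averaged 0.391, 0.0269, 0.831 and 0.144 in the combination, PRMT5i, EZH2i and DMSO groups.

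Other genes near RGS1 were examined in the same way. Within 500 kilobases of the stretch from RGS18 to RGS2, 24 genes of the table are annotated and 12 could be tested, RGS1, RGS2, RGS13 and RGS18 among them. RGS21, a taste-cell regulator between RGS18 and RGS1, had 1 count over all libraries and was not tested. GLRX2, a mitochondrial glutaredoxin gene, fell with PRMT5i against DMSO (−0.55, SE 0.16, edgeR adjusted p = 0.0142), which no longer passed when DMSO replicate 1 was left out. With EZH2i it fell as well (−0.62, SE 0.16, edgeR adjusted p = 0.0285), and this call was lost without DMSO replicate 1 or 4, without EZH2i replicate 1, 2 or 3 and with only the groups compared. CDC73, a gene of the PAF1 transcription complex, rose with PRMT5i against DMSO (0.53, SE 0.15, edgeR adjusted p = 0.0105). ZNF101P2, a pseudogene, averaged 0.102 CPM with PRMT5i and 0.258 CPM with DMSO (log2 fold change −1.28, edgeR adjusted p = 0.0370), a call lost in DESeq2, with total counts, with no filter, and without DMSO replicate 2 or 3 or PRMT5i replicate 1, 3 or 4. UCHL5, TROVE2, B3GALT2, RP11-92K2.2 and RP11-142L4.3 were called in no comparison by edgeR. RGS1, RGS13 and RGS2 lie in this order within 233.3 kilobases, and RP11-92K2.2 lies between RGS13 and RGS2.

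**Figure D3:**
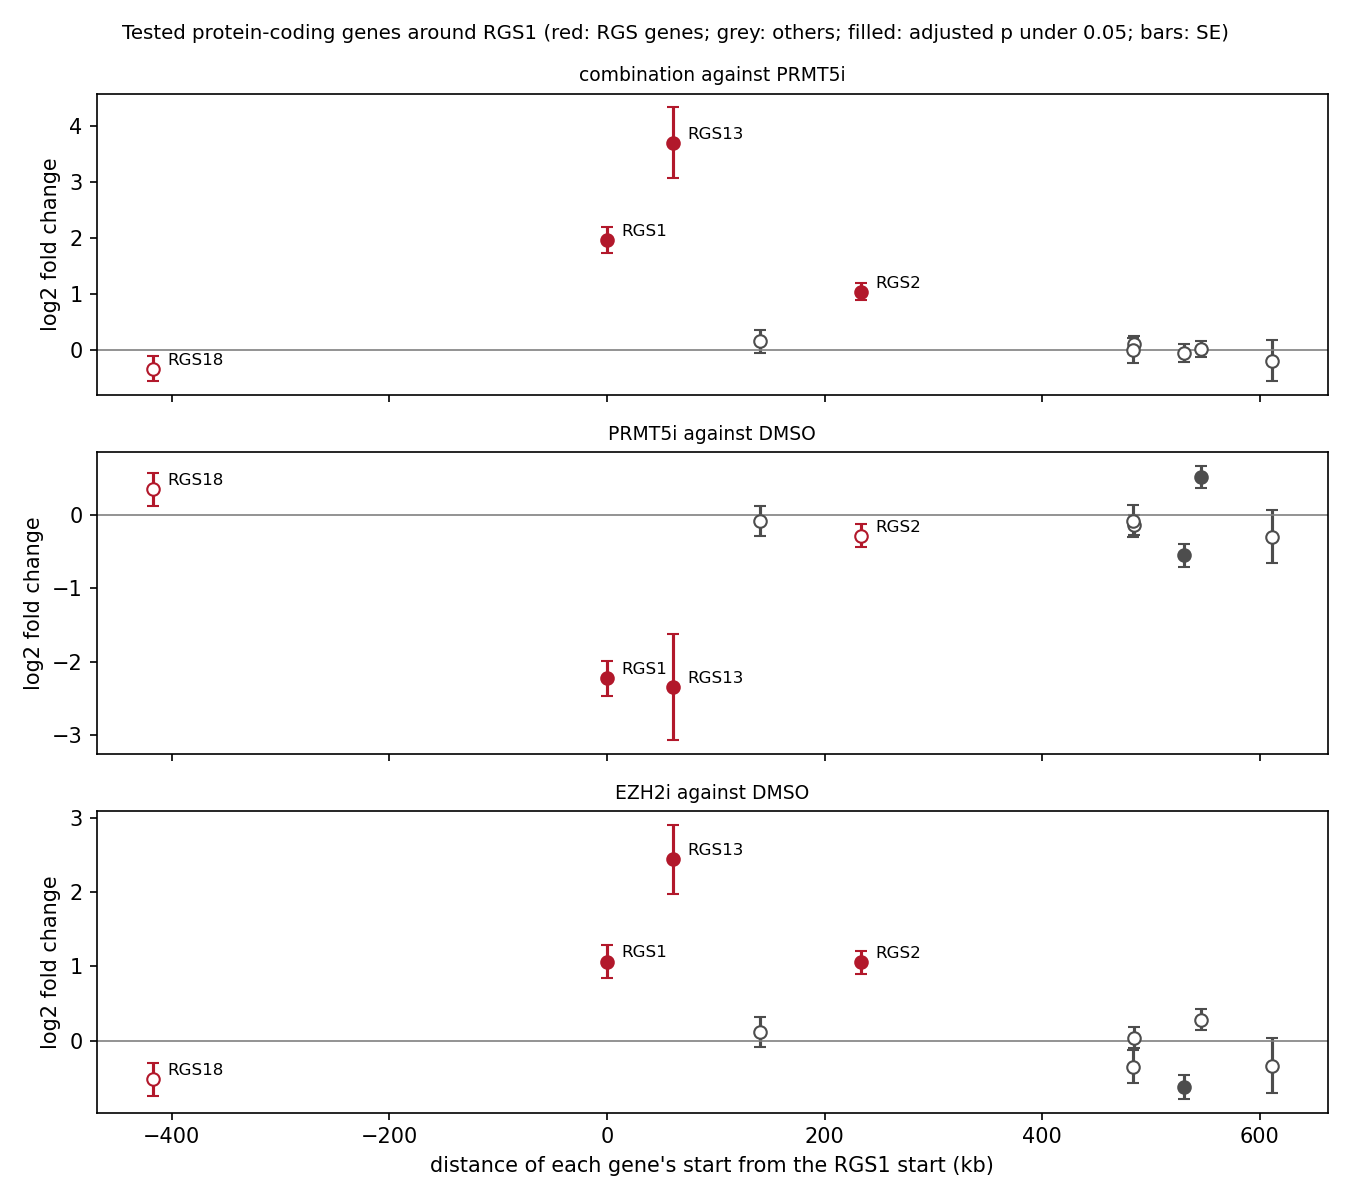
Log2 fold change ± SE of each tested protein-coding gene around RGS1, against the distance of its start from the start of RGS1 in kilobases, in 3 comparisons. Red points are RGS genes and filled points passed an adjusted p of 0.05. RGS1, RGS13 at 60.4 and RGS2 at 233.3 kilobases are above 0 in the upper and lower panels, while RGS18 at −417.3 kilobases and the grey points lie between −0.62 and 0.28 there.

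Among the other RGS genes, 3 of 8 tested rows rose with EZH2i against DMSO, those of RGS13, RGS12 and RGS3, and 5 did not pass, beside 4.11% of all genes higher and 3.49% lower. With only the groups compared none of the 3 was called. RGS13 entered the 8 because of its EZH2i libraries, so its call with EZH2i is a description only. RGS12, a relative of RGS10 and RGS14 with a GoLoco motif, averaged 11.9 ± 0.672 CPM in the combination, 10.1 ± 0.649 with PRMT5i, 12.4 ± 0.372 with EZH2i and 8.81 ± 0.963 with DMSO (SD, n = 4). It rose in the combination (log2 fold change 0.44, edgeR adjusted p = 0.00105) and with EZH2i (0.49, SE 0.09, edgeR adjusted p = 0.00375), both against DMSO. Its call with EZH2i was lost with only the groups compared. RGS3 averaged 1.91 CPM with EZH2i and 1.09 CPM with DMSO (0.82, SE 0.22, edgeR adjusted p = 0.0363), and this call was lost under 8 alternatives, among them no filter on low counts and leaving out any of DMSO replicates 1, 3 and 4 or EZH2i replicates 1 and 2. RGS5 has 2 rows that share exon bases, so their counts are uncertain. The protein-coding row fell in the combination (−1.30) and with PRMT5i (−0.94) against DMSO, and the row annotated as antisense had −0.62 and −0.80 there. The antisense row lost its call with PRMT5i without DMSO replicate 4, and its call in the combination under 9 alternatives. RGS17, RGS20 and RGS9BP were called in no comparison by edgeR. In the combination against EZH2i RGS17 had 0.72 in edgeR (adjusted p = 0.0569), and it was called there by DESeq2 (0.73, adjusted p = 0.0326). The remaining 10 rows had at most 10 counts in any library. The median log2 fold change of the 8 tested rows was 0.30 with EZH2i against DMSO, beside −0.0055 over all genes. RGS13 is among these rows and RGS5 gives 2 of them, so no shift of the other RGS genes is read from this median. This list too was chosen with earlier results of these data known, so its calls and p-values are a description.

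Genes whose level followed a member most closely were found by the root mean square difference of mean-centred log2 CPM over the 16 libraries, among 10484 genes with a group mean of at least 5 CPM. The measure uses the treatment differences themselves, so it is a description with no test. TRAF1 (0.526), an adaptor of tumour necrosis factor receptors, was nearest to RGS1, followed by SPRY1 (0.562), an inhibitor of receptor tyrosine kinase signalling. XIRP1 (0.574), FBXO43 (0.579) and RGS16 (0.581) came next, where the median over all compared genes was 1.24. TRAF1 averaged 3.50 ± 0.667 CPM in the combination, 1.62 ± 0.197 with PRMT5i, 10.8 ± 1.70 with EZH2i and 5.28 ± 1.15 with DMSO. XIRP1, an actin-binding gene of muscle, averaged 3.96, 0.996, 13.8 and 4.12 CPM in the same groups. All 5 genes were lowest with PRMT5i and highest with EZH2i, as RGS1 was.

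**Figure D4:**
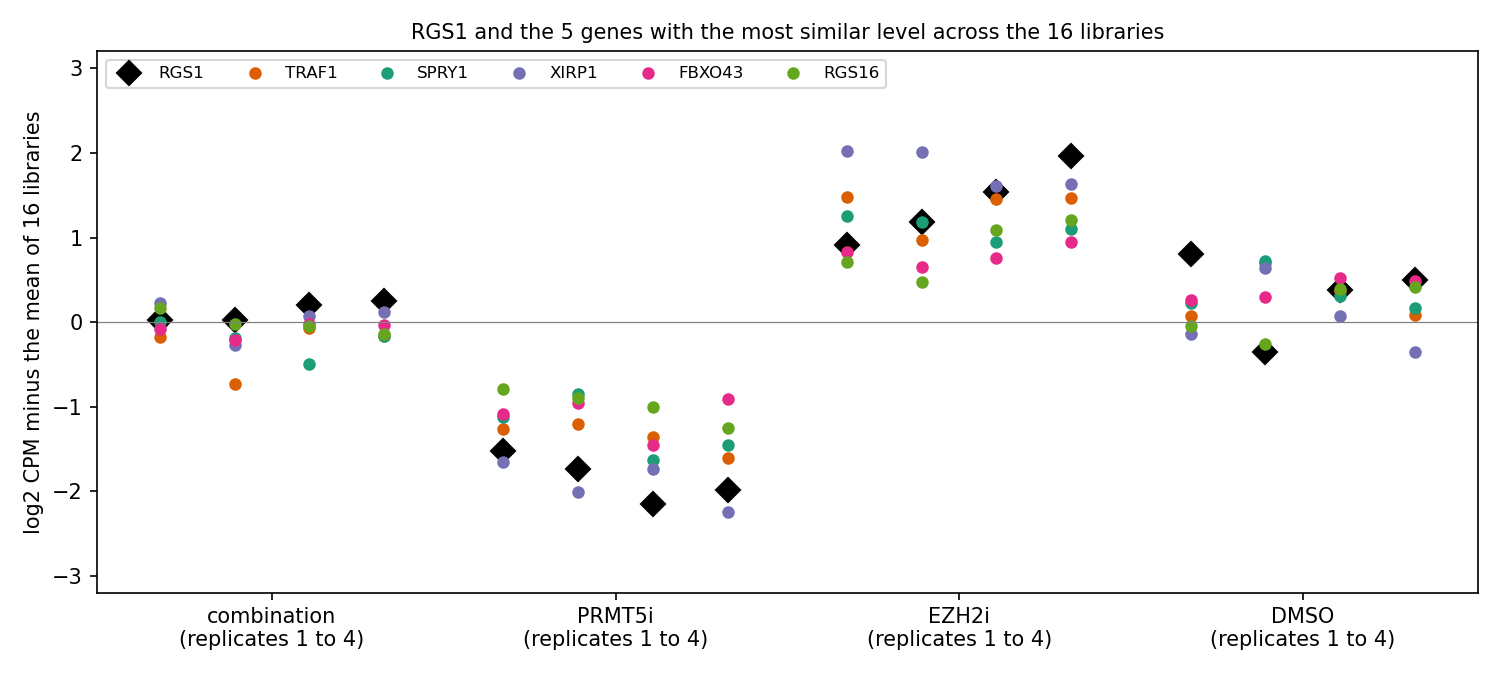
Log2 CPM of RGS1 (black diamonds) and of the 5 genes nearest to it (coloured circles) in each of the 16 libraries, with the mean of each gene over the libraries subtracted. The order of replicates within a group has no meaning. All 6 genes are below 0 in the 4 PRMT5i libraries and above 0 in the 4 EZH2i libraries.

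RGS16 had as its nearest genes INHBA (0.243), which encodes an activin subunit, the immediate early gene EGR1 (0.253) and CHRNA5 (0.258). INHBA averaged 50.5 ± 6.95 CPM in the combination, 28.2 ± 5.62 with PRMT5i, 77.4 ± 15.8 with EZH2i and 54.7 ± 4.77 with DMSO. CHRNA5 shares 23% of its exon bases with an opposite-strand gene, so its counts are uncertain. For RGS2 they were the transporter gene SLCO4C1 (0.214), SYNPO2 (0.264) and GPC3 (0.295). SLCO4C1 averaged 14.4 ± 0.952, 7.30 ± 0.753, 19.0 ± 4.36 and 8.90 ± 1.32 CPM in the combination, PRMT5i, EZH2i and DMSO groups. The nearest genes of RGS10 were M6PR, CSF2RA and RNF7, and those of RGS14 were GGT1, MAP3K3 and PLIN3. RGS18 had PPP1R2, C18orf32 and C7orf60, and RGS19 had RPS6KB2, VPS28 and DNAJC5. M6PR shares 29.3% and PLIN3 17.8% of their exon bases with an opposite-strand gene, and C18orf32 shares 16% with a same-strand gene. Their counts are uncertain as well. No other pair of the 7 genes besides RGS1 and RGS16 appeared among these nearest genes. RGS16 was last of the 5 genes kept for RGS1, while 3 were kept for each other member. RGS1 was not among the 3 genes nearest to RGS16.

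The partners of RGS proteins in the same cells were described from lists of G protein genes, with the shares over all genes given beside their calls. These lists were chosen with earlier results of these data known, and most genes named from them were picked for small p-values. The counts, medians and p-values of the lists are therefore a description, and no result about the lists is read from them. Of 10 tested G alpha genes, 2 rose and 1 fell with PRMT5i against DMSO, beside 17.1% of all genes higher and 18.3% lower. The median of the G alpha genes was 0.07 there, beside −0.0032 over all genes. The number of G alpha genes called there was 5 without DMSO replicate 2, and 1 without PRMT5i replicate 4 or with only the groups compared. GNAI2, a Gi subunit of leukocytes, the class on which RGS1 and RGS10 act, averaged 173 ± 10.8 CPM in the combination, 199 ± 12.6 with PRMT5i, 163 ± 21.0 with EZH2i and 152 ± 29.2 with DMSO. It rose with PRMT5i against DMSO (log2 fold change 0.40, SE 0.12, edgeR adjusted p = 0.0176), a call lost without PRMT5i replicate 3 and with only the groups compared. GNA11, a Gq-class subunit, fell there (−0.44, SE 0.14, edgeR adjusted p = 0.0212), which no longer passed without DMSO replicate 2 or PRMT5i replicate 4 and with total counts. GNAQ, the Gq subunit itself, averaged 125 ± 4.29 CPM in the combination and 89.7 ± 16.7 CPM with DMSO, and rose (0.48, SE 0.15, edgeR adjusted p = 0.0218), which did not hold without DMSO replicate 2 or combination replicate 4.

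Of 10 tested G beta and gamma genes, 5 rose in the combination against DMSO and 5 did not pass, beside 17.6% of all genes higher and 18.5% lower. The median of the 10 genes was 0.41, beside 0.0022 over all genes. The number of them called was 3 without DMSO replicate 3, combination replicate 3 or combination replicate 4, and with no filter or only the groups compared. GNG2 averaged 29.4 ± 3.34 CPM in the combination, 24.0 ± 2.79 with PRMT5i, 16.02 ± 3.49 with EZH2i and 9.81 ± 0.892 with DMSO. It rose against DMSO in the combination (1.58, SE 0.14, edgeR adjusted p = 4.58e-07), with PRMT5i (1.29) and with EZH2i (0.71, a call lost with only the groups compared). GNG7 rose with PRMT5i against DMSO (1.55, SE 0.21, edgeR adjusted p = 2.12e-05). GNG5 also rose there (0.37), but another gene of the same strand shares 30.9% of its exon bases and its counts are uncertain.

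Effectors take the signal onward to cyclic AMP, phospholipids and calcium. Of 13 tested effector genes, 9 rose in the combination against DMSO, with a median of 0.45, and 4 did not pass. Over all genes 17.6% were higher and 18.5% lower. With PRMT5i against DMSO 9 rose as well, with a median of 0.49, beside 17.1% of all genes higher and 18.3% lower. PIK3R5, which encodes a regulatory subunit of the G-protein-activated PI3-kinase gamma, averaged 50.8 ± 3.17 CPM in the combination, 57.6 ± 2.69 with PRMT5i, 24.4 ± 3.50 with EZH2i and 28.1 ± 4.02 with DMSO. It rose with PRMT5i against DMSO (1.04, SE 0.11, edgeR adjusted p = 2.69e-06), as did the phospholipase gene PLCB2 (0.84, SE 0.16, edgeR adjusted p = 6.86e-04). The adenylyl cyclase gene ADCY3 was the effector called in the combination against PRMT5i (−0.40, SE 0.10, edgeR adjusted p = 0.0252). This call was lost with total counts and without PRMT5i replicate 2, 3 or 4 or combination replicate 1, 2 or 4, and an opposite-strand gene shares 24.6% of its exon bases.

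Of 48 tested receptors of leukocytes, 23 rose and 6 fell with PRMT5i against DMSO, with a median of 0.43. Over all genes 17.1% were higher and 18.3% lower. In the combination against PRMT5i 3 rose and 6 fell, beside 2.91% of all genes higher and 1.24% lower. These 9 receptor calls became 15 with only the groups compared and 2 to 5 without PRMT5i replicate 2, 3 or 4 or combination replicate 1 or 2. With EZH2i against DMSO 6 receptors fell and 42 did not pass, beside 4.11% of all genes higher and 3.49% lower. Leaving out DMSO replicate 2 gave 14 calls, and leaving out DMSO replicate 4 gave 1. The number was 2 when EZH2i replicate 2 was dropped, 3 when EZH2i replicate 3 was dropped, and 0 with only the groups compared. The receptor for platelet-activating factor, PTAFR, averaged 18.1 ± 2.77 CPM in the combination, 27.9 ± 5.49 with PRMT5i, 4.56 ± 0.520 with EZH2i and 6.12 ± 0.816 with DMSO. It rose with PRMT5i against DMSO (2.18, SE 0.15, edgeR adjusted p = 2.60e-08). In the combination against PRMT5i it fell (−0.62, SE 0.15, edgeR adjusted p = 0.0215), a call lost without PRMT5i replicate 3 or 4 or combination replicate 1 or 2. GPR183, the oxysterol receptor that guides leukocyte migration, rose in the combination (2.20) and with PRMT5i (2.13, SE 0.16, edgeR adjusted p = 5.70e-08), each against DMSO. GPR84, a receptor for medium-chain fatty acids, averaged 6.70 ± 0.506 CPM in the combination, 4.86 ± 0.250 with PRMT5i, 11.8 ± 1.35 with EZH2i and 13.7 ± 1.12 with DMSO. It fell with PRMT5i against DMSO (−1.50, SE 0.10, edgeR adjusted p = 1.69e-08). It rose in the combination against PRMT5i (0.46, SE 0.10, edgeR adjusted p = 0.0148), a call lost with no filter and without PRMT5i replicate 3 or 4 or combination replicate 1.

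Among 12 other regulators of G proteins, 3 rose and 1 fell with PRMT5i against DMSO, beside 17.1% of all genes higher and 18.3% lower. With only the groups compared 2 regulators were called in place of 4. ARHGEF12, which carries an RGS domain, averaged 11.5 ± 1.06 CPM in the combination, 18.6 ± 2.06 with PRMT5i, 12.8 ± 0.751 with EZH2i and 21.9 ± 2.18 with DMSO. It fell in the combination against PRMT5i (−0.70, SE 0.10, edgeR adjusted p = 0.00109) and with EZH2i against DMSO (−0.78, SE 0.10, edgeR adjusted p = 4.25e-04). Its relative ARHGEF11 rose with PRMT5i against DMSO (0.79, SE 0.11, edgeR adjusted p = 3.26e-05). RIC8B, a guanine exchange factor and chaperone of alpha subunits, rose in the combination against DMSO (0.45, SE 0.09, edgeR adjusted p = 6.38e-04). The related gene RIC8A fell in that comparison (−0.37, SE 0.09, edgeR adjusted p = 0.0045). Of 8 receptor kinases and arrestins, 2 rose and 2 fell with PRMT5i against DMSO, beside the same 17.1% and 18.3%. These 4 calls became 2 with 10 alternatives, among them no filter and leaving out DMSO replicate 2 or 3. The beta-arrestin gene ARRB1 averaged 103 ± 12.3 CPM with PRMT5i and 68.3 ± 8.28 CPM with DMSO (0.60, SE 0.12, edgeR adjusted p = 6.98e-04).

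The cells' identity was checked with marker lists. All 10 myeloid markers of MOLM-13 passed the filter, with SPI1 at 50.9 to 68.9 CPM over the group means. Monocyte and macrophage markers summed to 198 to 247 CPM in the combination, 228 to 302 with PRMT5i, 127 to 160 with EZH2i and 94.0 to 148 with DMSO. Granulocyte markers summed to 3290 to 3690, 2776 to 3455, 2726 to 4729 and 1793 to 3609 CPM in those groups, with CEACAM8 at 0. Of the 14 monocyte markers 5, and of the 11 granulocyte markers 3, were under 1 CPM in every group. RGS14 and the monocyte markers were both higher in the groups with PRMT5i, and RGS1 and RGS16 were not, and the part of such markers in the RGS levels was not tested.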

How the data were processed

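Expected counts per gene, unscaled, were deposited by the authors in 1 table with a column for each of the 16 libraries. The submitters' processing notes name STAR 2.5.3, RSEM and the genome build GRCh38.p7, with no settings. Annotation, strandedness and library kit: not given in the sources used here. Of all values, 12.0% were not exactly whole, since RSEM divides reads that match several genes, and expected counts were rounded. The libraries held 31.1 to 52.9 M counts.

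Genes were filtered with filterByExpr of edgeR 4.0.16 by group, scaled by the trimmed mean (TMM) method and fitted with 4 group means in 1 quasi-likelihood model over all 16 libraries. Benjamini-Hochberg adjustment ran over all 16555 genes, at a threshold of 0.05. Log2 CPM used a prior count of 2. The procedure was tested on simulated data. DESeq2 1.42.0 was an alternative.

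The members and all gene lists were chosen with earlier results of these data known. Named besides the 7 members were every other tested RGS gene, the 3 genes of each G protein list with the smallest p among those past the threshold with a group mean of at least 5 CPM, the 3 genes nearest each member (5 for RGS1), and tested neighbours within 500 kilobases. RIC8A was added only as the relative of RIC8B, and its values under the alternatives are not given. Gene positions come from GENCODE release 29 and promoters from RefSeq (GRCh38.p14). All 7 members and RGS13 had a promoter entry. Only the 250 bases before each start were used. Replicate pairs of a group differed by far more than sampling noise, with chi-square values per degree of freedom of 8.92 to 296, so none was counted as a duplicate.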

Additional observations from a re-analysis of the deposited data

Results flagged for a closer look

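Each of the 15 tested RGS rows was checked in each of the 4 groups for a library far from the other 3, which made 60 checks. Chance flags about 1 in 20 such groups, and 3 were found, so they are values only. RGS10 had 26.9 CPM in EZH2i replicate 3, above the other 3 EZH2i libraries. The protein-coding row of RGS5 had 0.762 CPM in combination replicate 2, above the other combination libraries. RGS9BP had 2.77 CPM in combination replicate 1, above the rest of its group, and an opposite-strand gene covers 28.1% of its exon bases.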

How the results depend on the processing

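No result changed its direction while called. For the 7 members, 363 of 375 alternative values of called results stayed called and 12 lost the call, and of 668 values of uncalled results 17 gained one. A further 51 of the 668 changed sign while uncalled, by at most 0.192 in size. For the other named RGS genes, partners and neighbours, 121 of 1616 values of called results lost the call and 47 of 3262 of uncalled results gained one. With DESeq2 the calls over all genes numbered 2149 for EZH2i against DMSO (1259 in edgeR), 1064 for the combination against PRMT5i (688) and 121 for the interaction (48). With only the groups compared, they numbered 135 for EZH2i against DMSO and 2099 for the combination against PRMT5i, with 1 and 5 of the 7 members called. The interaction needs all 4 groups and was not run that way. With total counts in place of TMM, 5 members were called in the combination against EZH2i (3 with TMM), RGS10 and RGS18 being added. That scaling moved the share of higher calls to 74.7% (54.1% with TMM) for EZH2i against DMSO, to 65.8% (48.7%) for the combination against DMSO and to 86.1% (70.1%) for the combination against PRMT5i, and it put the median log2 fold change of all genes at 0.129 (0.0022 with TMM) in the combination against DMSO. Deviations from the group means of same-numbered libraries correlated at −0.272 to 0.236 over 24 pairs, so the numbers were not taken to pair libraries. The replicate number as a block gave 1430 genes for EZH2i against DMSO and 857 for the combination against PRMT5i, and changed no count of members called, but RGS3 with EZH2i and the antisense row of RGS5 in the combination, each against DMSO, no longer passed (adjusted p = 0.0508 and 0.0544). Replicates 1 and 2 against 3 and 4 as a block gave 1533 and 908 genes. That block added RGS10 (−0.32) to the 3 members called in the combination against PRMT5i, and gave 10 receptor calls with EZH2i in place of 6. Leaving out 1 library at a time gave 499 to 4591 genes for EZH2i against DMSO (members 3 to 5), 4898 to 6853 for PRMT5i against DMSO (3 to 4), 5122 to 7110 for the combination against DMSO (2 to 2), 263 to 1011 for the combination against PRMT5i (3 to 4), 3714 to 5565 for the combination against EZH2i (3 to 5) and 28 to 124 for the interaction (0 to 0). The cause of these shifts was not tested. Depth limits RGS3, RGS5, RGS13, RGS17 and RGS20, whose group means were all under 2 CPM.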
